A study of Homo sapiens with 28 samples.

Results

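The mitochondrial ribosomal protein genes are the nuclear genes that encode the protein subunits of the ribosome inside mitochondria. They were taken as every protein-coding gene of the annotation whose symbol starts with MRPL (large subunit) or MRPS (small subunit) followed by a number. This gave 78 of 57820 genes, 48 named for the large and 30 for the small subunit. The 78 entries carried 76 distinct symbols, because MRPS17 and MRPL30 each had an extra entry that the reference annotation tags as a readthrough gene, a model that joins neighboring genes. Reads of these 4 entries may be divided between the models, so their values are uncertain. Subunits whose symbols lack this form, such as DAP3 and PTCD3, were handled as a separate list. All 78 members passed the filter on low values at 24 h and 77 passed it at 6 h, where the MRPL30 readthrough model was left out.

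RNA was sequenced in 28 libraries of SEM, an established leukemia line of B-cell precursors with an MLL-AF4 fusion. The endogenous CTCF protein of every line except the WT cells carried an AID-mClover3 degron tag, and these cells made the F74G mutant of OsTIR1 at all times from a lentiviral MND promoter, so that 5-Ph-IAA leads to degradation of the tagged protein. A doxycycline-inducible OsTIR1 at the AAVS1 locus was also present in these cells. The 24 h set held CTCF-AID2 cells with 5-Ph-IAA for 24 h (n = 4) and without it (n = 4), and WT cells, which have no degron, with IAA (n = 2) and without it (n = 2). The dose of 5-Ph-IAA is 1 µM in the sample titles and 10 µM in the protocol text. In the study's methods the IAA regimen was joined with doxycycline. Effects of IAA and of doxycycline therefore cannot be told apart in the WT cells. The 6 h set held degron lines that carry an added, doxycycline-inducible CTCF: a full-length form (here the WT line, not the same as the WT cells), a form without zinc finger 1 (dZF1), one without zinc finger 10 (dZF10) and one without the RNA-binding region (dRBR), each with auxin for 6 h (n = 2) and without it (n = 2). For these lines the study's methods give 5-Ph-IAA at 10 µM for 6 h, with doxycycline to induce the added CTCF. The labels name the auxin alone, and whether the libraries without auxin also had doxycycline is not stated. The labels do not say that replicates were separate cultures, so the p-values rest on a spread among libraries that may be only technical.

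Mitochondrial ribosomes translate the few proteins encoded by mitochondrial DNA, all of them parts of the respiratory chain and ATP synthase. Their RNA comes from the mitochondrial genome, whereas every protein subunit is transcribed in the nucleus, translated in the cytosol and imported. Many subunits descend from bacterial ribosomal proteins and others were gained in the course of mitochondrial evolution. MRPS2 is a small subunit protein with a bacterial homologue.

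The sequences shown are those around MRPS2, the member with by far the steepest fall, and the promoters of 3 members that bear on the comparison with it. The promoters are RefSeq windows on GRCh38.p14, from 250 bases before to 50 bases after a gene start, in 5′ to 3′ direction of the gene. Capitals mark matches, on either strand, to 1 of 5 motifs: the CTCF core consensus, the NRF1 site (GCGCA and GCGC with any 1 base between), the ETS core CCGGAAG bound by GABP, the E-box CACGTG bound by MYC and MAX, and the YY1 core AAGATGGCG. MRPS2 has 2 windows in the table, at chr9:135500432-135500731 and chr9:135499715-135500014, both on the plus strand. The first holds none of the motifs, and the second holds an E-box that starts 56 bases before the gene start.
MRPS2 promoter, first window: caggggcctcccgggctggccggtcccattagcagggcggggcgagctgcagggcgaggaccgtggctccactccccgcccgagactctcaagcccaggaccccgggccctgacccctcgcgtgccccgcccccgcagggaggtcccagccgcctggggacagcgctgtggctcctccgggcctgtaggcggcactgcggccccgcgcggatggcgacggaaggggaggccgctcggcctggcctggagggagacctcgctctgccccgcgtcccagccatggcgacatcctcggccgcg
MRPS2 promoter, second window: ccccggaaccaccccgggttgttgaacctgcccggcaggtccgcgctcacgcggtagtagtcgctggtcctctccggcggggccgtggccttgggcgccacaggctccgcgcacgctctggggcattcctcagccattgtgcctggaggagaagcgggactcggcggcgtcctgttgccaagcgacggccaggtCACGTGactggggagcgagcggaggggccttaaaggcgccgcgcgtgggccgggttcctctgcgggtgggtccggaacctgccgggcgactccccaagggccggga
MRPS25 fell with MRPS2 at both times, and its window (chr3:15065266-15065565, minus strand) holds no match. MRPL36, a member that fell, has an NRF1 site, an E-box and a YY1 core (chr5:1799788-1800087, minus strand). The window of MRPL24, which fell more at 24 h and is not shown, holds no match. MRPL52, a member that rose, has an ETS core and 2 YY1 cores (chr14:22829637-22829936, plus strand).
MRPS25 promoter: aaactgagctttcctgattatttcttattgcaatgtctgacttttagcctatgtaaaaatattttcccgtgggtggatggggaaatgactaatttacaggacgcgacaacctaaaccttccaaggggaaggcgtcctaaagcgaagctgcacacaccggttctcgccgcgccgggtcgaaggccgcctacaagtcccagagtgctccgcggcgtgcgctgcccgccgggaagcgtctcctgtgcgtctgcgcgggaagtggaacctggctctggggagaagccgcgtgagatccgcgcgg
MRPL36 promoter: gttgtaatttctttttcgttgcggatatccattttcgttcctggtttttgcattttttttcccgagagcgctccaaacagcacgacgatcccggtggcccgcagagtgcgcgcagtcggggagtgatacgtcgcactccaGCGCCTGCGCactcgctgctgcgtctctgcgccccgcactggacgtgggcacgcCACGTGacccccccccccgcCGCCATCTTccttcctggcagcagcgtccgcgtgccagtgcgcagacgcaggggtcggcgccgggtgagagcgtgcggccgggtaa
MRPL52 promoter: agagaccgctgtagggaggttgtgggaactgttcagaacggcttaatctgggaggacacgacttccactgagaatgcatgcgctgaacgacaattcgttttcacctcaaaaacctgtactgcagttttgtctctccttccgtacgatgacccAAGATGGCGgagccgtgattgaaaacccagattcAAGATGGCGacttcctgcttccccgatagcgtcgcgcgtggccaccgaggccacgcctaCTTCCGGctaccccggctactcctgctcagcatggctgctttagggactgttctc
A match to the CTCF core consensus lies 152 bases past the 3′ end of MRPS2 on GRCh37 (chr9:138396671-138396684, plus strand). The stretch chr9:138396641-138396714 is shown, with the match in capitals.
MRPS2, downstream match: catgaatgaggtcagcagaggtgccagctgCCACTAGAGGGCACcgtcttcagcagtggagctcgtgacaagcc

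RefSeq promoters were found for 67 of the 76 symbols, in 83 windows, and MRPL2 and MRPL23 were among those without one. The ETS core was in 38.6% of the member windows and in 10.3% of all 35116 windows. The YY1 core was in 15.7% of the member windows and 1.75% of all, the NRF1 site in 10.8% and 5.78%, and the E-box in 10.8% and 7.26%. The NRF1 site and the E-box have the same share because each was in 9 of the 83 windows. The CTCF core consensus was in 0 of the 83 member windows and in 0.339% of all. On GRCh37, 1 of 76 members with a position (MRPL38) had a CTCF consensus match within 1000 bases of the gene start and 2 (MRPS2 and MRPS12) had one within 1000 bases of the gene end, against 0.98% and 1.15% of the 13568 tested genes with a position. Members with an ETS core had a median log2 fold change of -0.23 at 24 h in CTCF-AID2 cells (29 symbols) and those without it -0.29 (38 symbols). With and without the motif, the medians were -0.20 and -0.25 for the E-box, -0.28 and -0.24 for the NRF1 site, and -0.26 and -0.24 for the YY1 core. A match to these letters is not evidence of binding.

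Members differed widely in level. Per length of transcript, in transcripts-per-million (TPM) as deposited, the median member had 17.9 TPM in untreated CTCF-AID2 cells. MRPL51 (52.3 TPM), MRPL52 (48.8 TPM) and MRPS34 (44.8 TPM) were the highest. The readthrough models of MRPS17 (0.568 TPM) and MRPL30 (0.598 TPM) were the lowest, followed by MRPL30 itself at 1.82 TPM and MRPL50 at 4.66 TPM. MRPS2 lay below the median member, at 14.6 TPM. Over the 6 h set, MRPL51, MRPL52, MRPS34, MRPL3 and MRPL20 had the highest mean levels, 56.1 to 37.1 TPM, and MRPS2 had 12.9 TPM.

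MRPS2 lost most of its RNA after 24 h of 5-Ph-IAA in CTCF-AID2 cells. In counts-per-million (CPM) scaled by TMM factors, it had 4.73, 4.62, 4.32 and 5.13 CPM in the treated libraries, against 46.2, 47.5, 44.7 and 43.4 CPM in the untreated libraries. The groups were far apart and the treated libraries were close to each other. The log2 fold change was -3.28 ± 0.06 (SE, adjusted p = 4.4e-14, limma with Benjamini-Hochberg adjustment), which leaves 10.3% of the untreated level. Read counts were 255 to 283 in the treated libraries, against 2195 to 2610 in the untreated libraries. It ranked 8 from the lowest among the fold changes of all 13973 tested genes. In TPM it had 1.64, 1.63, 1.49 and 1.89 with 5-Ph-IAA, against 13.2, 15.7, 14.4 and 15.1 without it.

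In WT cells MRPS2 had 33.9 and 34.7 CPM with IAA, against 36.2 and 37.8 CPM without it, a log2 fold change of -0.11 ± 0.055 (SE) that did not pass the test (adjusted p = 0.20, limma). The 24 h effect in CTCF-AID2 cells minus that in WT cells was -3.17 ± 0.08 on the log2 scale (SE, adjusted p = 9.8e-12, limma). The gene lies at chr9:138391830-138396519 on GRCh37, plus strand. Of the 12 other annotated genes within 100 kb of it, none reached the filter on low values in the 24 h set. C9orf116 overlaps its first part on the opposite strand and had at most 14 reads in any library. RP11-426A6.5 is antisense to its last part and had at most 1 read.

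**Figure D1:**
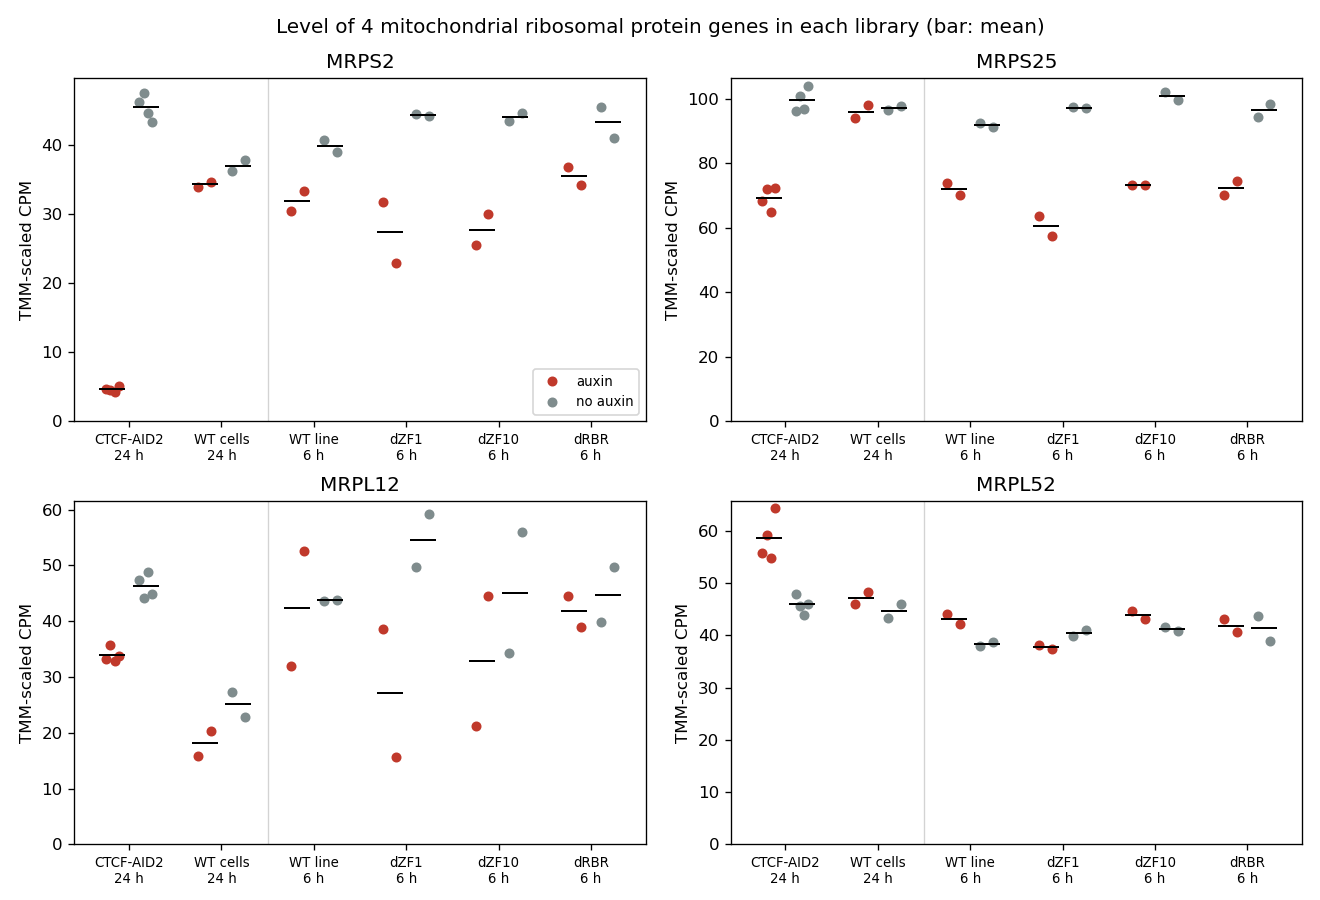
Level of MRPS2, MRPS25, MRPL12 and MRPL52 in each library, in TMM-scaled counts-per-million (y axes start at 0), with auxin (red, left) and without it (grey, right) for each line and time; bars are group means. MRPS2 sits between 4.32 and 5.13 CPM in the treated CTCF-AID2 libraries and at 22.9 CPM or more in every other library, whereas MRPS25 is lower with auxin in CTCF-AID2 cells at 24 h and in the 4 lines at 6 h, and overlaps between WT cells with and without IAA.

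Most other members also fell at 24 h, by much less than MRPS2. In CTCF-AID2 cells 62 of the 78 members were lower with 5-Ph-IAA at an adjusted p of at most 0.05 (limma), 79.5% of them, against 29.5% of all tested genes. Only 2 were higher, the readthrough model of MRPS17 and MRPL52, against 29.2% of all tested genes, and 14 did not pass. The median log2 fold change was -0.25 over the members and -0.002 over all tested genes, and 75 of 78 values were below 0. MRPS2 was the only member past a 2-fold fall (1.67% of all tested genes were), none was past a 2-fold rise (1.89% of all tested genes were), and the next member, MRPL24, kept 63.5% of its untreated level. The median member kept 84.1%. The summed level of the members other than MRPS2 was 2842 to 3021 CPM in the treated libraries, against 3386 to 3480 CPM in the untreated libraries, and these ranges did not overlap. In 60 members every treated library lay below every untreated library, against 26.6% of all tested genes. CPM are shares of each library, so fewer cells of a kind and less RNA per cell cannot be told apart.

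Members of both subunits fell in CTCF-AID2 cells at 24 h, where 29.5% of all tested genes were lower and 29.2% higher. Of the 48 members named for the large subunit 36 fell and 1 rose, with a median of -0.22. Of the 29 named for the small subunit, other than MRPS2, 25 fell and 1 rose, with a median of -0.29. These groups follow the symbols, and MRPS18A and MRPS30, counted as small, are found in the large subunit. Members listed with a bacterial homologue fell in 39 of 48 cases (median -0.24), or in 38 of 47 without MRPS2. The other members, counted as specific to mitochondria or of paralogous origin, fell in 23 of 30 (median -0.26). The quartiles of all members were -0.33 and -0.17, a narrow range beside the value for MRPS2.

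MRPL24, a large subunit protein with a bacterial homologue, had 16, 15.4, 14.9 and 17.2 CPM in treated CTCF-AID2 cells, against 26.2, 23.4, 24.9 and 25.3 CPM in untreated ones. Its log2 fold change of -0.66 ± 0.053 (SE, adjusted p = 1.2e-07, limma) was the largest after MRPS2. MRPL23, which lies at the exit of the peptide tunnel, had 28.2, 28.7, 26.3 and 29.4 CPM with 5-Ph-IAA, against 42.7, 41.7, 42.5 and 42.6 CPM without it. The groups of both genes were separate. MRPL2, a subunit near the peptidyl transferase center, had 18.1, 20.3, 20.0 and 22.4 CPM in treated cells, against 31.5, 30.2, 29.0 and 29.0 CPM in untreated cells. MRPS25, a small subunit protein without a bacterial homologue, had 68.2, 72.0, 65 and 72.2 CPM, against 96.3, 101, 96.7 and 104 CPM. The log2 fold changes were -0.59 ± 0.045 for MRPL23, -0.57 ± 0.054 for MRPL2 and -0.52 ± 0.038 for MRPS25 (SE). MRPL50 (-0.51 ± 0.041), MRPL36 (-0.46 ± 0.040) and MRPL1, a protein of the ribosome's L1 stalk (-0.45 ± 0.054), came next.

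Few members rose. MRPL52 had 55.8, 59.2, 54.9 and 64.3 CPM in treated CTCF-AID2 cells, against 48.0, 45.7, 44 and 46.0 CPM in untreated cells, a log2 fold change of 0.35 ± 0.048 (SE, adjusted p = 2.4e-05, limma). The readthrough model of MRPS17 rose by 0.41 ± 0.11 on the log2 scale from a low level, 2.59 to 3.26 CPM with 5-Ph-IAA and 1.87 to 2.61 CPM without it, and its groups overlapped at 1 library. MRPS17 itself fell (-0.43 ± 0.047, SE), and GBAS, a gene that overlaps both models, had a log2 fold change of -0.98. MRPL51, the member with the highest level, was among the 14 that did not pass, with 0.04 ± 0.037.

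**Figure D2:**
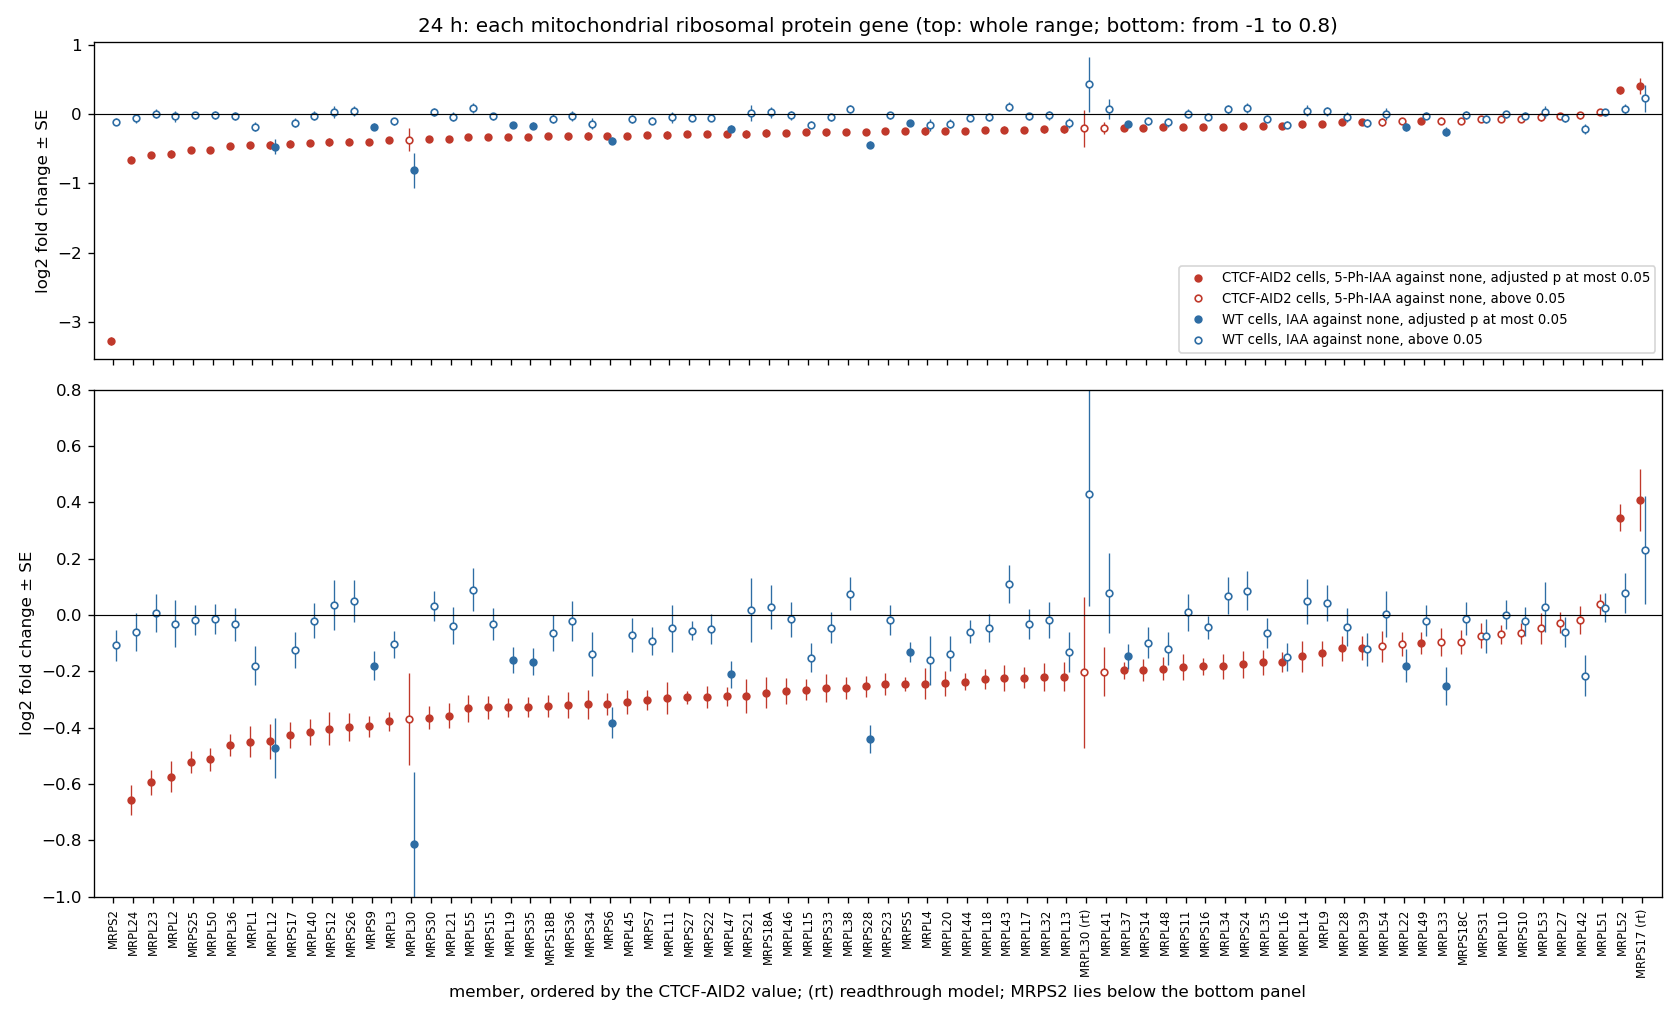
Log2 fold change ± SE at 24 h for each of the 78 members, ordered by the value in CTCF-AID2 cells (red, 5-Ph-IAA against none), with WT cells in blue (IAA against none); filled points passed an adjusted p of 0.05. MRPS2 stands alone at -3.28, the quartiles of the red points are -0.33 and -0.17, and those of the blue points are -0.13 and 0.01.

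WT cells treated with IAA showed some smaller falls of their own. In these cells 12 of 78 members fell (limma), against 9.57% of all tested genes, and 0 rose, against 9.35%. No rise passed an unadjusted p of 0.05 either, and edgeR and DESeq2 also gave 0. With any one of the 4 WT libraries left out, 3 to 7 members fell. The largest falls were in MRPL30 (-0.81 ± 0.26, SE), MRPL12 (-0.47 ± 0.11), MRPS28 (-0.44 ± 0.050), MRPS6 (-0.38 ± 0.054) and MRPL33 (-0.25 ± 0.068), and MRPL47 had -0.21. The call of MRPL33 is lost without untreated replicate 1 (-0.16, adjusted p = 0.18, limma) or without IAA replicate 2 (-0.18), and that of MRPL47 without untreated replicate 1 (-0.15). MRPL12, a stalk protein that is also known to bind the mitochondrial RNA polymerase, had 15.9 and 20.3 CPM with IAA, against 27.4 and 22.8 CPM without it, and its call is lost without untreated replicate 1 or without IAA replicate 1. MRPS28 had 33.2 and 31.7 CPM with IAA, against 42.8 and 45.1 CPM without it. Of the 12 members, 9 also fell in CTCF-AID2 cells, where 79.5% of all members fell. There MRPL12 had 33.2, 35.8, 32.9 and 33.7 CPM with 5-Ph-IAA, against 47.4, 44.1, 48.8 and 44.9 CPM without it. The call of MRPL30 is lost without any one of the WT libraries, and so are those of MRPS9 and MRPL22, each at -0.18.

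Tested against each other, the 24 h effects differed in 40 members. The effect was lower in CTCF-AID2 cells in 38, against 20.9% of all tested genes, and higher in 2 (MRPL52 and MRPS28), against 19.3%. MRPS2 was the only one past 2-fold, as 2.28% of all tested genes were on the lower side. After it came MRPL23 (-0.60 ± 0.081, SE), MRPL24 (-0.60 ± 0.085), MRPL2 (-0.54 ± 0.099) and MRPS25 (-0.50 ± 0.065). For MRPL12 the difference was 0.02 ± 0.12 and did not pass. Over all members the median difference was -0.19, and -0.02 over all tested genes. The count was 25 without WT untreated replicate 2 and 26 without WT IAA replicate 1. The share of counts that were not whole numbers was 7.08% to 7.84% in CTCF-AID2 libraries and 2.73% to 2.82% in WT libraries, for a reason not given in the sources used here, and levels were not compared between these cells. Cell line and agent differ together here and cannot be told apart.

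**Figure D3:**
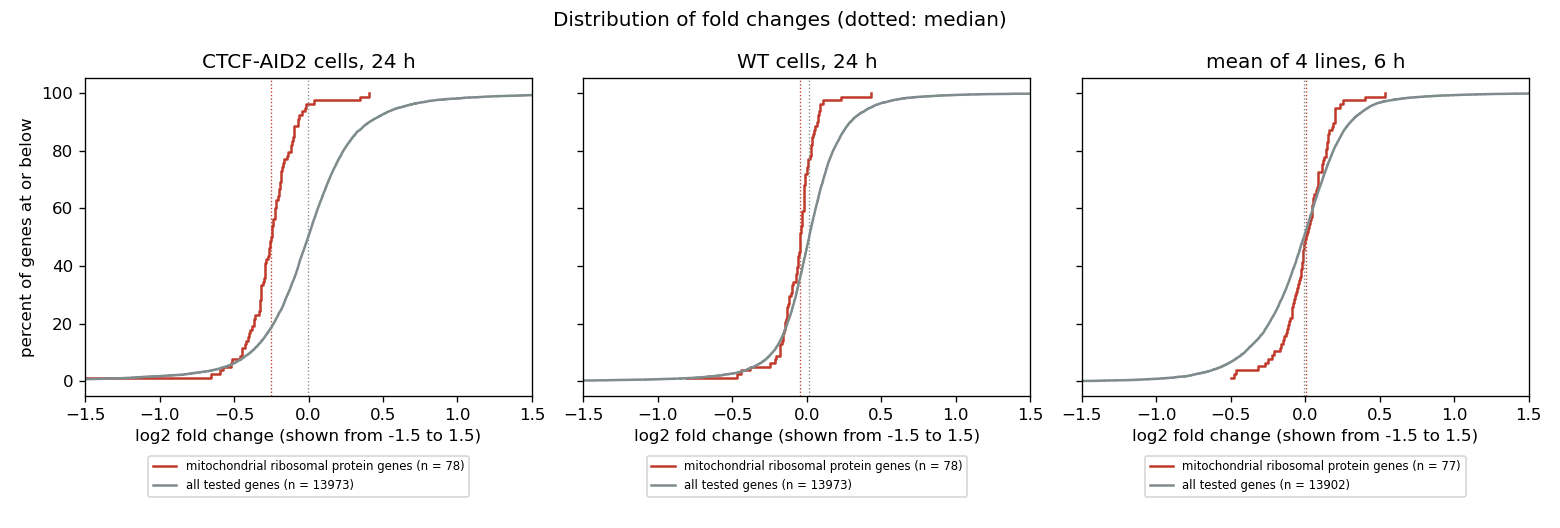
Share of genes (percent, y axis) at or below each log2 fold change (x axis) for the mitochondrial ribosomal protein genes (red) and all tested genes (grey), with medians dotted. The members' median is -0.25 in CTCF-AID2 cells at 24 h, -0.04 in WT cells at 24 h and 0.003 for the mean of 4 lines at 6 h.

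At 6 h most members did not pass the test, while MRPS2 and a few others were lower. Averaged over the 4 lines, 11 of 77 members fell and 12 rose (limma), 14.3% and 15.6%, against 26.4% and 25.1% of all tested genes. The other 54 did not pass. The median was 0.003 over the members and -0.009 over all tested genes. By limma, edgeR and DESeq2 alike 0 members passed with a 2-fold change, against 0.77% of all tested genes on the lower side and 0.683% on the higher side. The fitted value was below 0 in all 4 lines for 19 members and above 0 in all 4 for 21, or 24.7% and 27.3%, against 29.4% and 28.5% of all tested genes. MRPS2 was the lowest member, with a mean log2 fold change of -0.50 ± 0.063 (SE, adjusted p = 5.4e-05, limma), and it ranked 949 from the lowest of 13902 tested genes. All 11 members that fell at 6 h also fell at 24 h in CTCF-AID2 cells, where 62 of all 78 members fell and 2 rose. Of the 12 that rose at 6 h, 5 fell at 24 h (MRPL1, MRPL9, MRPL18, MRPL39 and MRPL46) and 1 rose. The 2 sets use different lines, times and control libraries, and no test across them was made.

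MRPS2 was lower with auxin in each line. It had 30.4 and 33.4 CPM with auxin in the WT line, against 40.7 and 39.0 CPM without it. In the dZF1 line it had 31.8 and 22.9 CPM with auxin, against 44.5 and 44.2 CPM without it. The dZF10 line had 25.5 and 30 CPM, against 43.5 and 44.7 CPM, and the dRBR line had 36.8 and 34.2 CPM, against 45.5 and 41.1 CPM. In each line both treated libraries lay below both untreated ones, which held for 32.7% of all tested genes in both the WT line and dZF10, for 29.5% in dZF1 and for 32.8% in dRBR. The fall passed the test in dZF1 (-0.73 ± 0.13, SE, adjusted p = 0.0016, limma) and dZF10 (-0.67 ± 0.12, adjusted p = 0.0040). The values were -0.32 ± 0.13 in the WT line (adjusted p = 0.13) and -0.28 ± 0.13 in dRBR (adjusted p = 0.17), which did not pass (limma). With only the groups of 1 line in the fit these calls changed: MRPS2 passed in the WT line (adjusted p = 0.015, limma) and in dRBR (adjusted p = 0.037), still passed in dZF10 (adjusted p = 0.0087), and did not pass in dZF1 (adjusted p = 0.15). The effect minus that in the WT line was -0.41 ± 0.18 for dZF1 (adjusted p = 0.28), -0.35 ± 0.18 for dZF10 (adjusted p = 1.00) and 0.04 ± 0.18 for dRBR (adjusted p = 1.00) by limma, and none passed. The dZF1 difference depends on 1 library: it was -0.65 and passed without dZF1 auxin replicate 1 (adjusted p = 0.0043, limma), and it was -0.17 and did not pass without dZF1 auxin replicate 2 (adjusted p = 0.58).

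MRPS25 fell in every line. It had 74.0 and 70.2 CPM with auxin in the WT line, against 92.4 and 91.3 CPM without it, and 63.7 and 57.6 CPM in dZF1, against 97.6 and 97.0 CPM. In dZF10 it had 73.4 and 73.2 CPM, against 102 and 99.5 CPM, and in dRBR 70.3 and 74.6 CPM, against 94.5 and 98.3 CPM. In each line the treated libraries lay below the untreated ones, as in 29.5% (dZF1) to 32.8% (dRBR) of all tested genes. The mean log2 fold change over the lines was -0.48 ± 0.031 (SE, adjusted p = 3.7e-07, limma). In the WT line it was the only member that passed (1 lower, against 7.21% of all tested genes), and this call is lost without WT line auxin replicate 2. In dZF1 its call is lost in 2 of 14 alternatives, among them the fit with only the dZF1 groups. MRPS25 overlaps NR2C2 on the opposite strand. The sources used here do not say if reads were counted by strand.

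The other falls at 6 h were smaller. MRPS26 had 26.6 and 19.4 CPM with auxin in dZF1, against 39.7 and 38.9 CPM without it, and a mean over the lines of -0.32 ± 0.054 (SE). MRPL4 (-0.27 ± 0.077), MRPL2 (-0.25 ± 0.041), MRPS34 (-0.22 ± 0.043), MRPS18B (-0.21 ± 0.032) and MRPS27 (-0.17 ± 0.034) followed. Over all falls in the 6 h mean, 5 members are named for the large subunit (10.6%) and 6 for the small subunit (20.0%). Of all tested genes 26.4% were lower. The rises at 6 h were led by the readthrough model of MRPS17 (0.53 ± 0.12, SE), MRPL18 (0.25 ± 0.078) and MRPS31 (0.24 ± 0.074). MRPL42, MRPS18C, MRPL51, MRPL46 and MRPL1 had values of 0.18 to 0.20. The calls of MRPS18C and MRPL1 are lost when any of several single libraries is left out, and that of MRPS31 without dZF10 untreated replicate 2. MRPL30, at a low level, had the largest SE (0.40 ± 0.32, not passed), with 2.66 and 8.75 CPM with auxin in dZF1, against 1.36 and 2.23 CPM without it, and 2.12 and 1.24 CPM with auxin in the WT line, against 4.42 and 1.78 CPM without it. MRPL12 had a mean of -0.46 ± 0.20 that did not pass (adjusted p = 0.073, limma).

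**Figure D4:**
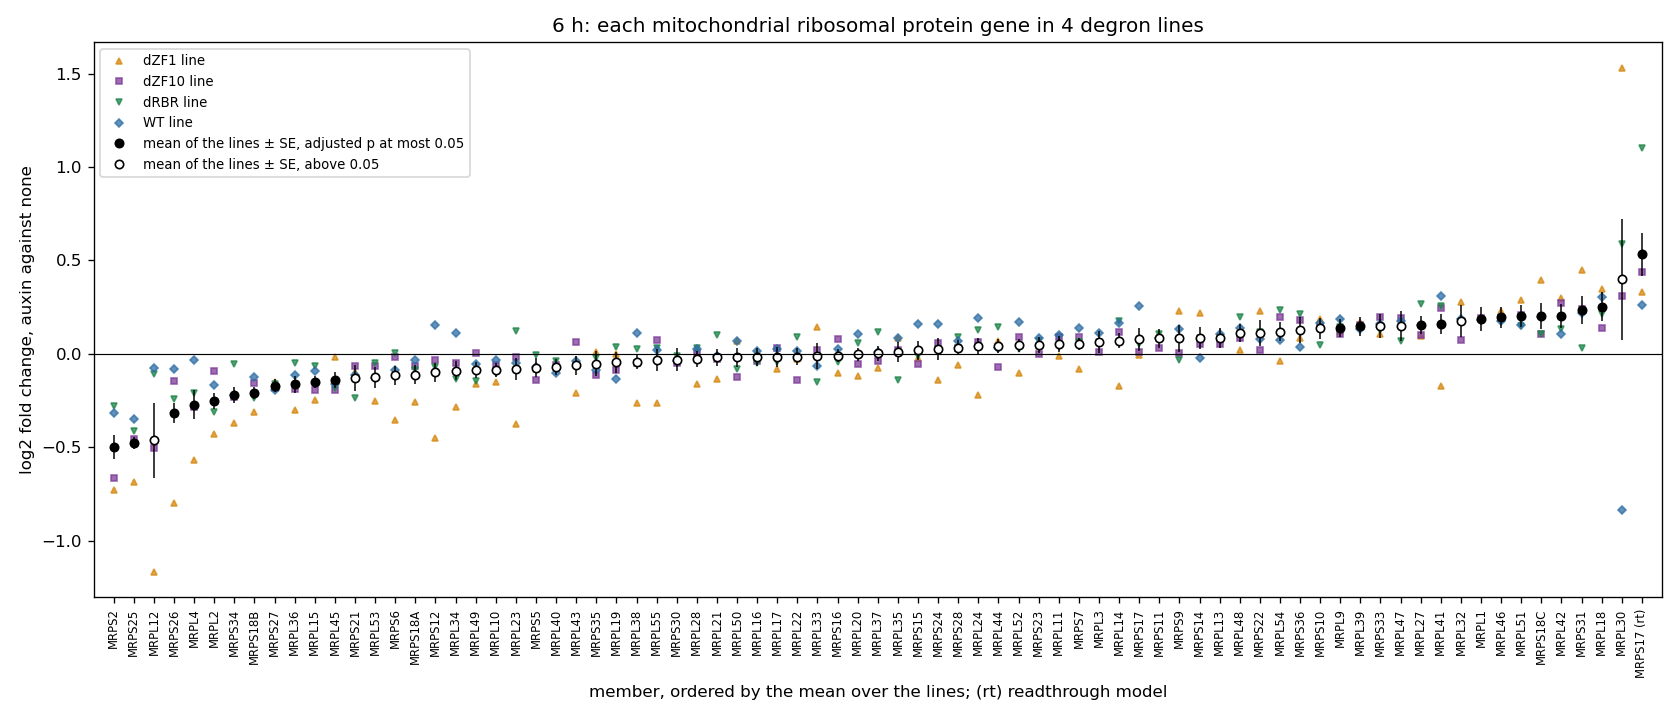
Log2 fold change at 6 h, auxin against none, for the 77 tested members in the dZF1, dZF10, dRBR and WT lines (coloured points) and their mean ± SE (black; filled where the adjusted p was at most 0.05), ordered by the mean. MRPS2 and MRPS25 are lowest at -0.50 and -0.48, the values spread to both sides of 0, and most members lie near 0.

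The treated dZF1 libraries stood apart from each other, and the counts for this line depend on them. The SD of the log2 difference between them over 9254 genes was 0.400, against 0.07 to 0.199 in all other replicate pairs, and the median member was lower in replicate 1 by 0.26 on the log2 scale. In dZF1 15 members fell and 2 rose, against 16.4% and 17.1% of all tested genes. The counts below leave 1 library out, and shares of all tested genes in those fits are not given here. Those counts show how the calls move and are not read as particular to the members. Without dZF1 auxin replicate 1, 15 fell and 27 rose, and without auxin replicate 2, 17 fell and 0 rose. Without untreated replicate 1, 9 members fell, and without untreated replicate 2, 6 fell, with 0 rises each time. The mean over the lines moved in the same way, to 14 falls and 27 rises without replicate 1 and to 18 falls and 12 rises without replicate 2. MRPS2 in dZF1 was at -0.97 without replicate 1 and -0.48 without replicate 2, and it passed the test both times. MRPL12 was the only member past a 2-fold fall in a single line (1.89% of all tested genes were, in dZF1), with 38.7 and 15.6 CPM with auxin in dZF1, against 49.7 and 59.3 CPM without it. Its fitted value was -1.17 ± 0.41 (SE, adjusted p = 0.045, limma), it was -0.49 without dZF1 auxin replicate 2, and it did not pass with edgeR (adjusted p = 0.078) or DESeq2 (adjusted p = 0.10). MRPL12 was also variable elsewhere, with 21.2 and 44.6 CPM with auxin in dZF10, against 34.3 and 56.0 CPM without it.

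In dZF10 2 members fell, MRPS2 and MRPS25, against 9.24% of all tested genes, and 0 rose, against 8.89%. In the WT line 0 rose, against 6.45%. At an unadjusted p of 0.05 there were 1 rise in dZF10 and 2 in the WT line, and edgeR and DESeq2 gave 0 in both. In dRBR 3 members fell, MRPS25, MRPL2 and MRPS18B, against 5.68% of all tested genes, and the call of MRPL2 is lost without any one of the 4 dRBR libraries. The 1 rise in dRBR, against 4.8% of all tested genes, was the readthrough model of MRPS17, with 2.98 and 3.37 CPM with auxin, against 1.24 and 1.63 CPM without it. Its log2 fold change was 1.10, past 2-fold, as were 0.46% of all tested genes. This call is also lost without any one of the 4 dRBR libraries. The effects in dZF1, dZF10 and dRBR minus that in the WT line passed the test for 0 members each (limma). Of all tested genes, 0.0719% were lower and 0.259% higher for dZF1, 0.0288% and 0.0144% for dZF10, and 0.0% on both sides for dRBR. At an unadjusted p of 0.05 there were 15 such members for dZF1, 0 for dZF10 and 1 for dRBR. The edgeR test gave 0 for all of them, and DESeq2 gave 4 for dZF1 and 0 for the others. The calls for the dZF1 difference changed with the dZF1 auxin library left out, and no share of all tested genes is given for those fits.

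Genes that work with these subunits moved in a similar way at 24 h. In CTCF-AID2 cells at 24 h, 29.5% of all tested genes were lower and 29.2% higher. Of the 6 mitoribosome subunits without an MRP symbol, 5 fell in these cells (83.3%), among them PTCD3 (-0.28), GADD45GIP1 (-0.51) and CHCHD1 (-0.22). Of 23 tested genes for mitoribosome assembly and ribosomal RNA modification 18 fell (78.3%) and 1 rose, with a median of -0.22. Among them DHX30, an RNA helicase needed for assembly, fell by 1.21 on the log2 scale (adjusted p = 3.6e-12, limma). RBFA, a small subunit assembly factor, had -0.43, and RPUSD4, a pseudouridine synthase, had -0.42. Of 19 mitochondrial translation factors 16 fell (84.2%, median -0.27), among them the elongation factors TSFM (-0.65) and GFM1 (-0.60), and LRPPRC (-0.42), which stabilizes mitochondrial mRNAs. At 6 h the median was -0.11 for the assembly genes, with 11 falls (47.8%) and 3 rises. For the translation factors it was 0.01, with 8 falls (42.1%) and 2 rises. In the same 6 h mean 26.4% of all tested genes and 14.3% of the members were lower, and 25.1% of all tested genes were higher.

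The mRNAs made inside mitochondria gave other values. Of the 13 mRNAs of the mitochondrial genome 1 (MT-ND4L) passed as lower in CTCF-AID2 cells at 24 h, and the median was -0.04. This is 7.69% lower, against 29.5% of all tested genes. The mean 6 h values lay between -0.25 and -0.08, with a median of -0.15, and 0 of the 13 passed the test. In WT cells 4 fell with IAA (MT-ND3, MT-CO1, MT-CO2 and MT-CO3), 30.8% against 9.57% of all tested genes, and the median was -0.25. Their summed level was 2072 and 2136 CPM in WT cells with IAA, against 2965 and 3057 CPM without it, and 3001 to 3308 CPM in CTCF-AID2 cells with 5-Ph-IAA, against 2950 to 3226 CPM without it. As the study's methods join IAA with doxycycline, the values in WT cells cannot be credited to IAA alone. Of 85 tested subunits of the cytosolic ribosome 65 fell and 1 rose in CTCF-AID2 cells at 24 h (median -0.16), 76.5% lower, against 29.5% of all tested genes. At 6 h 16 fell and 2 rose (median -0.05), 18.8% lower, which is under the 26.4% of all tested genes. Of 13 tested regulators of nuclear genes for mitochondria 9 fell and 3 rose at 24 h (median -0.11). This is 69.2% lower, against 29.5% of all tested genes, while 29.2% of all tested genes rose. MYC fell at 24 h (-0.88, adjusted p = 1.7e-11, limma) and at 6 h (-1.22, adjusted p = 9.3e-10), and GABPB2, a partner of the ETS factor GABPA, rose (0.93 and 0.49), and GABPB1, another such partner, rose at 24 h (0.51). The part of these genes in the members' fall was not tested.

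**Figure D5:**
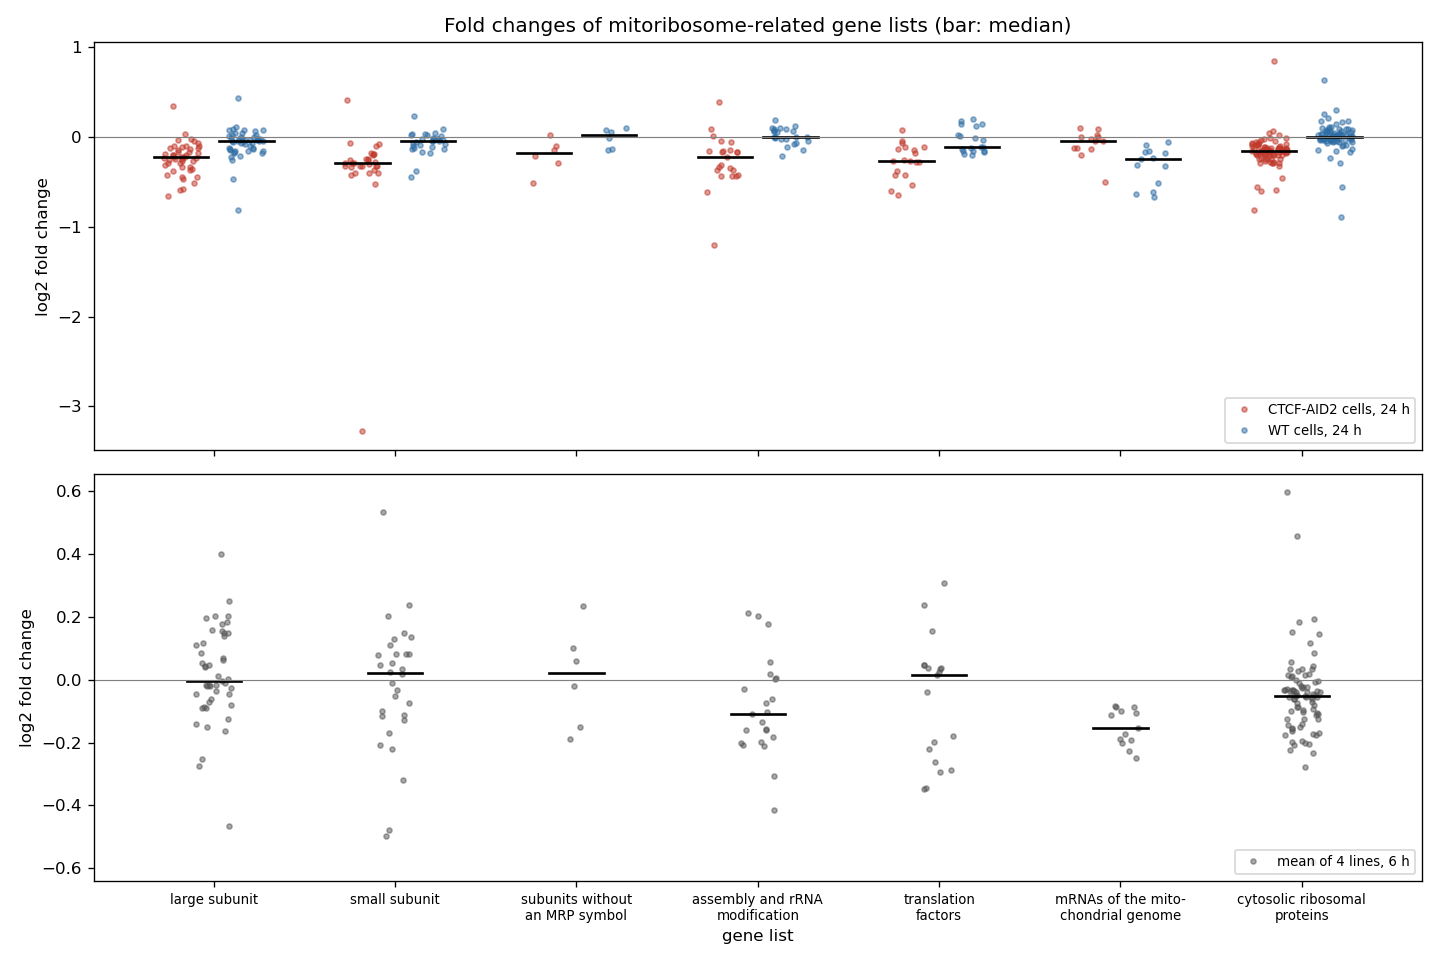
Log2 fold change of single genes (points) and medians (bars) for the members by subunit and for related lists, in CTCF-AID2 cells (red, left) and WT cells (blue, right) at 24 h above, and as the mean of 4 lines at 6 h below. The 24 h medians in CTCF-AID2 cells lie between -0.16 and -0.29 for the 6 lists of nuclear genes drawn and at -0.04 for the mRNAs of the mitochondrial genome.

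Many members overlap other genes. Of the 76 members with a position on GRCh37, 31 overlap another tested gene, 11 of them on the same strand and 23 on the opposite strand, some on both. Values of those are uncertain where the other gene is high. Among those named here, they are MRPL2, MRPL20, MRPL30, MRPL33, MRPL42, MRPL47, MRPL51, MRPS6, MRPS17, MRPS18B, MRPS18C, MRPS25, MRPS27, MRPS28 and MRPS34. MRPS2, MRPL23, MRPL24 and MRPL36 overlap no tested gene.

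Library totals were 45.7 M to 59.8 M counts at 24 h and 25.8 M to 60.7 M counts at 6 h. CTCF RNA was 249 to 255 CPM in treated CTCF-AID2 cells, against 143 to 151 CPM in untreated ones, and 207 to 306 CPM with auxin in the 6 h lines, against 149 to 165 CPM without it. The tag acts on the protein, so this does not check the degradation, and in the 6 h lines the added CTCF may be counted too. Of 8 B-lineage markers 7 were above 1 CPM in every library, and the erythroid markers summed to at most 0.0188 CPM. CD3D, CD3E, CD2, MPO and CD14 were below 1 CPM throughout. However, 1 of 4 T and NK markers and 2 of 4 myeloid markers were above 1 CPM in every library. These lists summed to 13.9 to 27.6 CPM (T and NK) and 13.9 to 63.6 CPM (myeloid).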

How the data were processed

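RNA-seq of 28 SEM libraries was used. Reads were trimmed by the authors (Trim Galore 0.6.3), aligned to hg19 (STAR 2.7.9a) and summarised per gene in TPM and in expected counts (RSEM 1.3.1, Gencode annotation), and both are used as deposited. The labels name a 3′ tag kit while the study's methods describe stranded total RNA after rRNA depletion, and strand use in counting is not stated. For a 3′ tag kit the length scaling of TPM would not hold.

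Here the expected counts, deposited by the authors, were rounded to whole numbers and tested with limma 3.58.1 (voom, TMM factors from edgeR 4.0.16, R 4.3.3), with 1 mean per group and all libraries of the 24 h or the 6 h set in the fit. Genes needed a CPM above 1 in at least 1 library. Adjusted p-values are Benjamini-Hochberg over all tested genes, and a call means an adjusted p of at most 0.05. A 2-fold change is a log2 value of 1 or more in either direction. The tests were tried on simulated data. Members named are MRPS2, the 8 largest falls and rises past the test in CTCF-AID2 cells, in WT cells and in the 6 h mean, the 3 smallest adjusted p of each other comparison, those past 2-fold, and the 5 highest and lowest by TPM. Others, including overlapping genes, were named after their values were seen. The members and gene lists were chosen with earlier results of these data known. Alternatives were edgeR, DESeq2 1.42.0, other normalization and filters, fewer groups in the fit, a replicate block, and each library left out. Promoters are from RefSeq on GRCh38.p14, and gene positions are on GRCh37.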

Additional observations from a re-analysis of the deposited data

Results flagged for a closer look

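For 18 of the 33 named members, the 24 h effect in CTCF-AID2 cells (5-Ph-IAA against none) differed from that in WT cells (IAA against none) by the test of the difference itself (limma, Benjamini-Hochberg adjustment over all tested genes). Of all tested genes 20.9% were lower and 19.3% higher in this comparison, and some of these members were named for their adjusted p in it or for their 24 h falls, so the count says nothing about the members. On the log2 scale, as the effect in CTCF-AID2 cells minus that in WT cells, MRPS2 differed most, by -3.17. Among large subunit members the difference was -0.60 for MRPL24, -0.60 for MRPL23, -0.54 for MRPL2, -0.50 for MRPL50 and -0.43 for MRPL36. It was -0.27 for MRPL3, -0.27 for MRPL1, -0.25 for MRPL46 and -0.18 for MRPL18. Among small subunit members it was -0.50 for MRPS25, -0.45 for MRPS26, -0.30 for MRPS17, -0.26 for MRPS18B, -0.24 for MRPS27 and -0.22 for MRPS9. The difference was positive for MRPL52, at 0.27, and for MRPS28, at 0.19. No library was flagged in any of the 66 groups of 4 libraries examined, where chance would give about 1 in 20. This does not show that the libraries agreed, and groups of 2 libraries were not examined. Over all genes compared, treated CTCF-AID2 replicate 4 lay further from the other treated replicates (SD of the log2 difference 0.126 to 0.153). Those replicates differed from each other by 0.0895 to 0.119.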

How the results depend on the processing

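Over the calls of the named members, 664 alternative values kept direction and call, 61 lost the call and 0 changed direction. Under no filter on low counts, 5 members were called in WT cells at 24 h, 26 for the difference of the 24 h effects, 8 in dZF1 and 2 in dRBR. DESeq2 called 4 for dZF1 minus the WT line. With only the groups compared in the fit, 6 members were called in the WT line (MRPS2 -0.32), 0 in dZF1 (MRPS2 -0.73) and 7 in dRBR (MRPS2 -0.27), where MRPS2 passed in the WT line and dRBR and not in dZF1. The cause was not tested.

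With each library left out in turn, the members called were 61 to 69 in CTCF-AID2 cells, 3 to 7 in WT cells and 25 to 49 for the difference at 24 h. At 6 h they were 0 to 1 in the WT line, 6 to 42 in dZF1, 2 to 2 in dZF10, 1 to 2 in dRBR, 18 to 41 for the mean and 0 to 25 for dZF1 minus the WT line. Shares of all tested genes are not given for these fits, so the counts are not read as particular to the members. MRPS2 ranged from -3.33 to -3.24 in CTCF-AID2 cells, -0.97 to -0.48 in dZF1, -0.55 to -0.43 for the mean, -0.65 to -0.17 for dZF1 minus the WT line and -0.04 to 0.11 for dRBR minus the WT line. This last value changed sign without WT line auxin replicate 1 (-0.03), dRBR auxin replicate 1 (-0.02) or dRBR untreated replicate 2 (-0.0425).

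The labels give no shared batch or day for a replicate number. Deviations of same-numbered libraries correlated at -0.421 to 0.103 in CTCF-AID2 cells, 0.091 in WT cells, 0.446 in dZF10, 0.372 in the WT line, 0.275 in dRBR and -0.347 in dZF1. The WT cells and the 6 h lines have 2 pairs each, too few to establish a pairing. With the replicate number as a block, the members called were 61 in CTCF-AID2 cells, 9 in WT cells, 37 for the difference, 16 in dZF1, 4 in dRBR, 2 in dZF10, 1 in the WT line and 23 for the 6 h mean. In dZF1 alone the replicate block gave 3 members and MRPS2 at -0.73, and a crossed block, chosen after seeing the data, gave 6.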
